A study of Mus musculus with 10 samples.

Results

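The cytosolic ribosomal protein genes were described in the ventral hippocampus (vHpc) of ovariectomized (OVX) C57BL/6 female mice. Members were the rows of the expression table whose gene symbol is Rpl or Rps followed by a number and at most a paralog letter, with a mean of at least 0.5 CPM (reads per 1000000 reads counted on genes) over the 10 libraries. Of 81 symbols of this form, 72 passed, 43 of the large and 29 of the small subunit, among 15081 genes at this level. Wild-type mice (WT) were compared with Het-Met mice, which carry 1 knock-in copy of the BDNF Met allele and 1 Val copy in every cell. All mice were ovariectomized at 70 to 80 days of age, recovered for 2 weeks and then drank 0.1% ethanol (vehicle) or 300 nM 17β-estradiol (E2) in 0.1% ethanol, about 0.7 µg per day, for 6 weeks. Each library held RNA pooled from 2 animals, and there were 2 vehicle and 2 E2 libraries from WT mice and 3 vehicle and 3 E2 libraries from Het-Met mice, all OVX. Gonad-intact mice were not among them.

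Ribosomal proteins clothe the ribosomal RNAs of the large subunit, which joins amino acids, and of the small subunit, which reads the mRNA. Their mRNAs are short, abundant and usually begin with a terminal oligopyrimidine (TOP) tract, a run of C and T at the start site through which mTORC1 and LARP1 set their translation as a group. Because these mRNAs are so abundant in the germ line, reverse transcription has left many processed copies, intronless pseudogenes, elsewhere in the genome, and a short read from a coding exon can match several of them.

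Start sites are shown first because the tract is the sequence that this family is known for. Of the 72 members, 54 had at least 1 start site in the RefSeq table (GRCm38.p6), with 64 entries in all. A run of at least 8 consecutive C or T letters lay within the 15 bases before and the 15 bases after the start on the gene's strand in 25 of the 64 entries (39.1%), against 12% of the 32851 entries of all genes. The same letters on the other strand, a run of at least 8 A or G, were in 4.69% of the member entries and 13.2% of all entries. These are the windows with the 5 longest runs, each of 30 bases, with the run in capitals:
Rpl7a: aTTCCCTCTTCTTTCTTTCTCCagcagccg
Rpl27a: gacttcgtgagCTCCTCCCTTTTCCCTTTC
Rpl35: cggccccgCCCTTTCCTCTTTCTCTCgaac
Rpl15: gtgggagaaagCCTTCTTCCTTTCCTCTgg
Rpl14: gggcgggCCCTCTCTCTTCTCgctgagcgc
The windows lie at chr2:26910792-26910821 on the plus strand (Rpl7a), chr7:109519180-109519209 on the plus strand (Rpl27a), chr2:39005117-39005146 on the minus strand (Rpl35), chr14:18270972-18271001 on the minus strand (Rpl15) and chr9:120571502-120571531 on the plus strand (Rpl14). The median genotype difference of the 25 genes with such a run was 0.19 on the log2 scale and that of the 29 genes without one 0.22.

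The libraries held 19820184 to 23267410 reads counted on genes, so that 1 read was worth 0.0430 to 0.0505 CPM. The defining markers of neurons, summed, lay at 6845 to 7429 CPM in every library, and all 6 markers of hippocampal neurons were present. Markers of the choroid plexus, which lies beside the ventral hippocampus, varied between libraries, at 152 to 1084 CPM summed in vehicle-treated OVX WT, 1916 to 2543 in E2-treated OVX WT, 1466 to 3252 in vehicle-treated OVX Het-Met and 267 to 1559 in E2-treated OVX Het-Met libraries. Pituitary markers summed to 1.80 to 209.5 CPM, and the 4 globin genes were listed at 0 in every library. These are bulk samples, so that fewer cells of a type and less RNA per cell cannot be told apart.

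One library stood apart for these genes. In E2-treated OVX Het-Met replicate 3, the deviations of the 72 members from their own means over the 10 libraries had an SD of 0.569 on the log2 scale, against 0.141 to 0.194 in the other 9 libraries, while over all genes tested the SD there was 0.212 against 0.150 to 0.207. In that library 6 members lay more than 1.5-fold above and 1 more than 1.5-fold below the range of all other libraries (9.72% of members, against 0.338% of all genes tested), and in none of the other 9 libraries did a member do so.

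Rpl21 was at 19.3 CPM in this library and at 2.21 to 3.84 CPM in the others. Rpl13 read 12.7 against 2.18 to 4.45 CPM, and Rpl35a 19.2 against 4.26 to 8.16 CPM. Rps18 read 11.2 against 2.68 to 4.55 CPM, and Rps25 25.6 against 8.77 to 13.6 CPM. Rps2 went the other way, at 7.64 against 15.9 to 20.6 CPM. In each of the genes set apart, at least 70.7% of the read-length windows of the coding sequence also occur, base for base, in transcripts of other genes. Copied windows were common in the family as a whole. Of the 71 members with a coding sequence, 22 had all such windows copied, 35 had 50% or more but not all, and 14 had under 50%. The part of such copies in these values was not tested. The summed CPM of the large subunit genes was 1.39 times that of the small subunit genes in this library and 1.26 to 1.32 times in the others. Without it the averages over treatments and genotypes moved by more than 0.1 on the log2 scale for 16 of 72 members, and these averages are given with and without it for the members named below, while those of the others moved by at most 0.095.

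**Figure D1:**
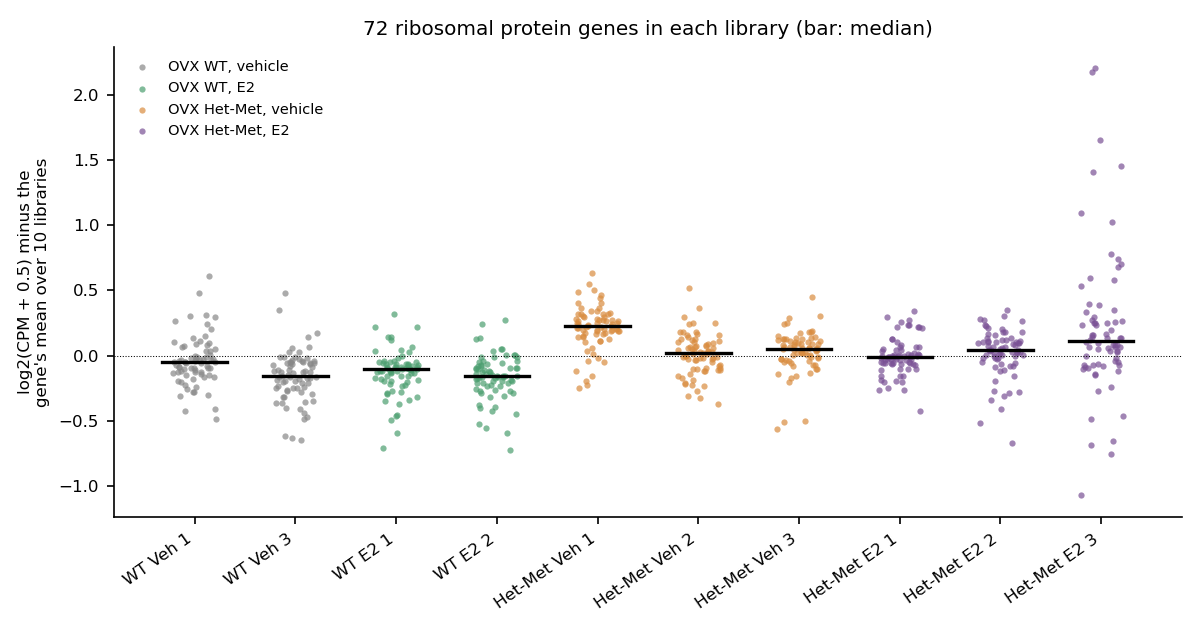
Each point is 1 of the 72 ribosomal protein genes in 1 library, plotted as its log2(CPM + 0.5) minus its mean over the 10 libraries, with the library's median as a bar. Medians were below 0 in the 4 WT libraries (-0.16 to -0.048) and highest in vehicle-treated OVX Het-Met replicate 1 (0.23), and the points of E2-treated OVX Het-Met replicate 3 lie apart from the others for 6 genes above and for Rps2 below.

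**Figure D2:**
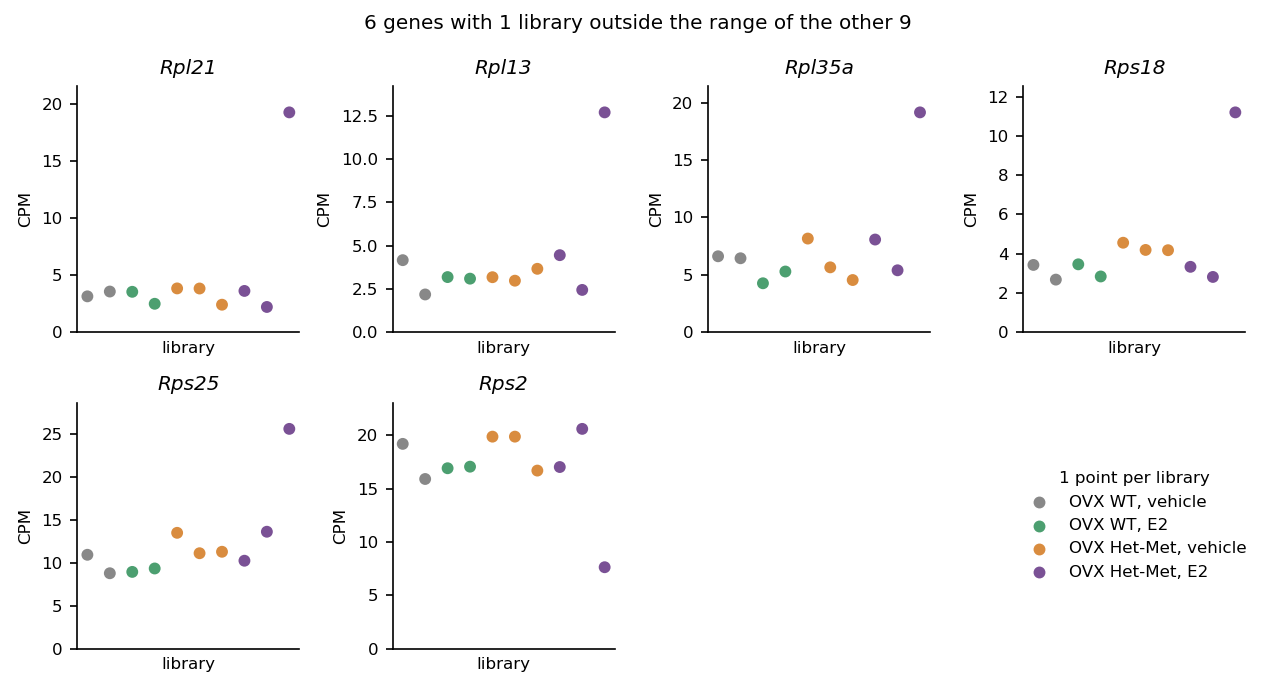
CPM of 6 genes for which 1 library lay more than 1.5-fold outside the range of the other 9, 1 point per library, coloured by group, with each vertical axis starting at 0. The last point of each panel, E2-treated OVX Het-Met replicate 3, is the one that stood apart, above in Rpl21, Rpl13, Rpl35a, Rps18 and Rps25 and below in Rps2.

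The genotype comparison asked whether the BDNF Met allele went with other transcript levels in OVX mice. Ribosomal protein transcripts were on balance a little higher in Het-Met mice than in their WT counterparts: averaged over treatments, 67 of 72 members had a log2 difference above 0 (57.3% of all genes tested did), with a median of 0.21, or 1.16-fold, against 0.024 over all genes. Together the members took 2280 to 2430 CPM in the 4 WT libraries and 2499 to 2948 CPM in the 6 Het-Met libraries, so that the sums of the genotypes did not overlap. No member was called by limma at an adjusted p under 0.05 and a fold change above 1.3, where 0.0265% of all genes were called, and the lowest adjusted p was 0.120. At an unadjusted p under 0.05, 30 members were higher (9.33% of all genes were) and 0 lower (7.27%). edgeR's quasi-likelihood test on the whole reads called 0 members (0.0265% of all genes) and DESeq2 called 1, Rps19 (0.584% of all genes). DESeq2 gave no adjusted p here for many low members, among them Rpl9, Rpl10a and Rpl11, and so could not call them. Without the fold limit DESeq2 put 4 members under an adjusted p of 0.05, all higher, namely Rpl4, Rpl23, Rps15 and Rps19 (1.96% of all genes, either direction). Without E2-treated OVX Het-Met replicate 3 the median was 0.18, again with 67 of 72 above 0 and 26 at an unadjusted p under 0.05 (7.71% of all genes), and without vehicle-treated OVX WT replicate 3 that count was 19 (6.36% of all genes).

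The libraries of the genotypes did not overlap, with every Het-Met library above every WT library, for 11 members (2.63% of all genes), and the reverse held for 0 (1.72%). Among them were Rpl4, Rpl7, Rpl15, Rpl23 and Rpl32 of the large subunit and Rps3, Rps10, Rps15, Rps19 and Rps24 of the small subunit. The count was 20 without vehicle-treated OVX WT replicate 1 (6.66% of all genes) and 18 without E2-treated OVX Het-Met replicate 1 (4.15%). Leaving out a library cannot lower it. It stayed at 11 without either E2-treated OVX WT replicate, vehicle-treated OVX Het-Met replicate 1 or 2, or E2-treated OVX Het-Met replicate 2 (2.82% to 3.86%). Without each of the rest it was 12 to 15 (3.43% to 4.27%).

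**Figure D3:**
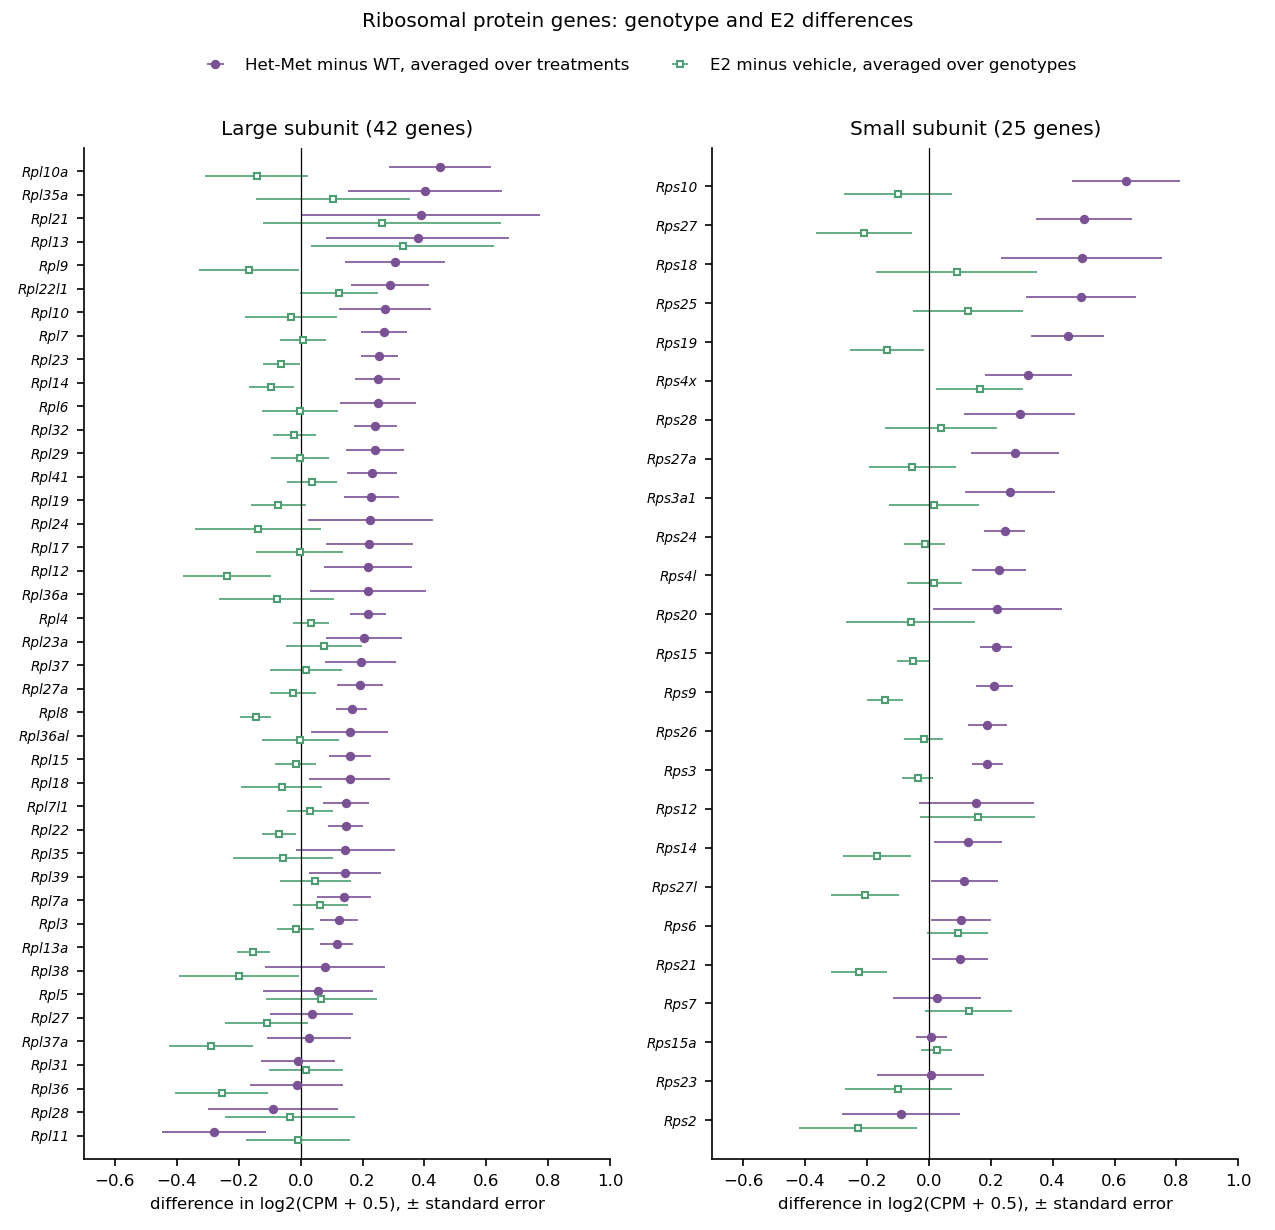
Differences in log2(CPM + 0.5) with their standard errors for 42 large and 25 small subunit genes, ordered by the genotype difference. Filled circles are Het-Met minus WT averaged over treatments (4 WT and 6 Het-Met libraries), of which 62 lie above 0, and open squares are E2 minus vehicle averaged over genotypes (5 libraries each), of which 24 lie above 0.

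Most members were on the same side within each treatment. In vehicle-treated mice 65 of 72 members were above 0 (55.3% of all genes), with a median of 0.21, and in E2-treated mice 62 (57.3% of all genes), with a median of 0.18. limma called 0 members under vehicle (0.00663% of all genes) and 0 under E2 (0.0265%). edgeR also called 0 in both (0.00663% and 0.0928% of all genes), and DESeq2 as well (0.225% and 0.192%). Under vehicle DESeq2 gave no adjusted p for some low members, among them Rpl28, Rpl35 and Rpl36a. Under vehicle 17 members were higher at an unadjusted p under 0.05 (5.85% of all genes) and 0 lower (4.83%), and for 32 the libraries did not overlap, with Het-Met higher (14.8%), and for 0 with Het-Met lower (9.89%). Under E2 18 were higher (6.29%) and 1, Rpl11, was lower (5.36%), and for 31 the libraries did not overlap with Het-Met higher (21.1%), and for Rpl11 with Het-Met lower (14.7%). Single libraries bore on these counts: without vehicle-treated OVX Het-Met replicate 1 the 17 became 3 (3.45% of all genes) and the median 0.14, without vehicle-treated OVX WT replicate 3 it became 9 (3.76%), and without vehicle-treated OVX WT replicate 1 the 32 became 54 (33.9%). Under E2 the 18 became 10 without E2-treated OVX WT replicate 1 (3.08%), 6 without E2-treated OVX WT replicate 2 (2.49%) and 7 without E2-treated OVX Het-Met replicate 3 (3.84%).

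Transcript length moved with this difference. The 1186 other genes tested with transcripts under 1000 bases had a median genotype difference of 0.13, with 929 above 0, the 6859 genes of 1000 to 3000 bases one of 0.067, and the 6860 longer genes one of -0.030. With the length trend of each library removed, the members' median was 0.099. The library with the highest median of the members, vehicle-treated OVX Het-Met replicate 1, also had the highest median of the other short genes, at 0.18 above their means. Like the members' sums, the medians of these other short genes did not overlap between genotypes. They were -0.11 to -0.026 in the 4 WT libraries and 0.0070 to 0.18 in the 6 Het-Met libraries. The part of length in the members' difference was not tested.

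In what follows each member named is given by its mean CPM over the 10 libraries and by 2 differences in log2(CPM + 0.5): the genotype difference (Het-Met minus WT, averaged over treatments) and the E2 difference (E2 minus vehicle, averaged over genotypes). No E2 difference and no genotype difference had an adjusted p under 0.05 by limma. Values after ± are standard errors, which ran from 0.049 (Rps3) to 0.38 (Rpl21), and adding 0.5 CPM understates the differences of low genes.

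The heart of the large subunit is the peptidyl transferase centre, to which Rpl3, Rpl8 and Rpl10 reach, and Rpl4 lines the tunnel that the new chain leaves through. Rpl4 read 364 and 342 CPM in vehicle-treated OVX WT, 362 and 346 in E2-treated OVX WT, 429, 383 and 395 in vehicle-treated OVX Het-Met and 384, 412 and 465 in E2-treated OVX Het-Met libraries. Every Het-Met value exceeded every WT value, with a genotype difference of 0.22 ± 0.058 (limma adjusted p 0.127) and an E2 difference of 0.033. Rpl8 read 219 and 220.2 CPM in vehicle-treated OVX WT, 211 and 195 in E2-treated OVX WT, 271, 244 and 240.1 in vehicle-treated OVX Het-Met and 223, 229.5 and 215 in E2-treated OVX Het-Met libraries. Its genotype difference was 0.16 ± 0.050 (adjusted p 0.147) and its E2 difference -0.14 ± 0.050 (adjusted p 0.9995), E2 values being lower within each genotype with no overlap. Rpl3 averaged 35.9 CPM, with differences of 0.12 for genotype and -0.017 for E2. Rpl10 had a mean of 1.83 CPM and differed by 0.27 between genotypes and by -0.030 with E2. Rpl17, which also lines the tunnel, averaged 3.21 CPM, with differences of 0.22 for genotype and -0.0035 for E2. Rpl39, a very small protein in the tunnel wall, had a mean of 7.26 CPM and differed by 0.14 between genotypes and by 0.047 with E2. For these last 4 the values of the genotypes overlapped.

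Around the tunnel exit stand Rpl19, Rpl23a, Rpl31 and Rpl35, with Rpl23a and Rpl35 forming the landing site of the signal recognition particle. Rpl19 averaged 11.98 CPM, with differences of 0.23 for genotype and -0.073 for E2. Rpl23a had a mean of 2.53 CPM and differed by 0.21 between genotypes and by 0.076 with E2. Rpl31, beside these, averaged 3.21 CPM, with differences of -0.0094 for genotype and 0.018 for E2 and lay between 2.67 and 3.65 CPM throughout. Rpl35 had a mean of 0.719 CPM and differed by 0.14 between genotypes and by -0.057 with E2 (standard error 0.16 and adjusted p 0.685 for genotype), with 0.494 and 0.740 CPM as the lowest and highest WT values and 0.522 and 0.968 CPM as those of Het-Met, on only 11 to 21 reads per library. Rpl24 and Rpl41 reach across to the small subunit as bridges. Rpl24 averaged 1.08 CPM, with differences of 0.23 for genotype and -0.14 for E2, and these were 0.075 and -0.29 without E2-treated OVX Het-Met replicate 3. Rpl41, the smallest protein of the ribosome, read 114 and 91.6 CPM in vehicle-treated OVX WT, 112 and 109 in E2-treated OVX WT, 132, 122 and 125 in vehicle-treated OVX Het-Met and 113, 110.4 and 149 in E2-treated OVX Het-Met libraries. Its genotype difference was 0.23 ± 0.081 (adjusted p 0.188) and its E2 difference 0.036, and WT and Het-Met values overlapped.

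Rpl5 and Rpl11 form a particle with 5S rRNA and, like Rpl23, bind Mdm2 and so can stabilise p53. Rpl23 read 54.8 and 55.2 CPM in vehicle-treated OVX WT, 48.4 and 52.6 in E2-treated OVX WT, 69.7, 57.4 and 62.3 in vehicle-treated OVX Het-Met and 64.0, 62.6 and 62.1 in E2-treated OVX Het-Met libraries. It was higher in every Het-Met library than in any WT library, by 0.25 ± 0.060 (adjusted p 0.120 by limma and 0.0316 by DESeq2), and its E2 difference was -0.062. Rpl11, on 15 to 43 reads per library, read 1.57 and 1.44 CPM in vehicle-treated OVX WT, 1.93 and 1.85 in E2-treated OVX WT, 1.76, 1.31 and 1.39 in vehicle-treated OVX Het-Met and 1.76, 1.11 and 0.711 in E2-treated OVX Het-Met libraries. Its genotype difference of -0.28 ± 0.17 (adjusted p 0.418) was the lowest of all members and was -0.17 without E2-treated OVX Het-Met replicate 3, and its E2 average of -0.0088 became 0.10. Under E2 its difference was -0.54 and all E2-treated Het-Met values lay under both E2-treated WT values. Rpl5 read between 0.793 and 1.94 CPM in WT and 0.996 and 1.80 CPM in Het-Met libraries, with differences of 0.057 ± 0.18 (adjusted p 0.904) for genotype and 0.067 for E2. Rpl12, at the base of the stalk that recruits the elongation factors, averaged 3.02 CPM, with differences of 0.22 for genotype and -0.24 for E2.

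Several large subunit proteins are known for roles in disease or outside the ribosome. Rpl13a, which leaves the ribosome to silence inflammatory mRNAs in the GAIT complex, had a mean of 91.3 CPM and differed by 0.12 between genotypes and by -0.15 with E2. Its E2 difference was lower at an unadjusted p under 0.05 both on average and within Het-Met mice. Rpl22, a tumour suppressor needed in T cells, averaged 65.1 CPM, with differences of 0.15 for genotype and -0.070 for E2. Rpl38, which in mouse embryos favours Hox mRNAs, had a mean of 1.19 CPM and differed by 0.078 between genotypes and by -0.20 with E2. Rpl10a, of the L1 stalk that moves with the departing tRNA, averaged 3.29 CPM, with differences of 0.45 for genotype and -0.14 for E2. Rpl35a and Rpl15, mutated in some families with Diamond-Blackfan anaemia, a bone marrow failure, were unlike each other. Rpl15 had a mean of 47.7 CPM and differed by 0.16 between genotypes and by -0.016 with E2, and its genotypes did not overlap. Rpl35a read 6.62 and 6.44 CPM in vehicle-treated OVX WT, 4.26 and 5.29 in E2-treated OVX WT, 8.16, 5.65 and 4.54 in vehicle-treated OVX Het-Met and 8.07, 5.39 and 19.2 in E2-treated OVX Het-Met libraries. Its interaction of genotype and E2 was the largest of the members, at 1.05 ± 0.50 (adjusted p 0.917), and was 0.56 without the replicate of 19.2 CPM. Its averages, 0.40 for genotype and 0.10 for E2, were 0.16 and -0.14 without that replicate.

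Of the other abundant large subunit genes, Rpl7 averaged 28.7 CPM, with differences of 0.27 for genotype and 0.0072 for E2. Rpl32 had a mean of 79.9 CPM and differed by 0.24 between genotypes and by -0.021 with E2. Rpl14 averaged 52.2 CPM, with differences of 0.25 for genotype and -0.095 for E2. For Rpl7 and Rpl32 the genotypes did not overlap. Rpl7a had a mean of 33.6 CPM and differed by 0.14 between genotypes and by 0.064 with E2. Rpl27a averaged 27.8 CPM, with differences of 0.19 for genotype and -0.026 for E2. Rpl6 had a mean of 20.3 CPM and differed by 0.25 between genotypes and by -0.0029 with E2. Among these Rpl6 was the most uneven, at 30.4 CPM in E2-treated OVX Het-Met replicate 3 and 16.9 to 22.8 CPM elsewhere, and without that library its averages were 0.13 and -0.12. Rpl29, a heparin-binding protein, averaged 14.4 CPM, with differences of 0.24 for genotype and -0.0028 for E2. Rpl36 read 13.2 and 9.32 CPM in vehicle-treated OVX WT, 10.2 and 10.1 in E2-treated OVX WT, 12.8, 12.6 and 10.99 in vehicle-treated OVX Het-Met and 10.7, 11.7 and 6.07 in E2-treated OVX Het-Met libraries. Its E2 difference of -0.26 ± 0.15 (adjusted p 0.9995) became -0.12 without E2-treated OVX Het-Met replicate 3, and its genotype difference of -0.012 became 0.13.

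Rpl37a read 12.6 and 8.33 CPM in vehicle-treated OVX WT, 9.56 and 10.1 in E2-treated OVX WT, 13.6, 11.4 and 12.2 in vehicle-treated OVX Het-Met and 9.44, 10.2 and 6.26 in E2-treated OVX Het-Met libraries. In Het-Met mice E2-treated values all lay below vehicle-treated ones, with a difference of -0.52 ± 0.17 (adjusted p 0.753), while averaged over genotypes it was -0.29 and the genotype difference 0.026. Without E2-treated OVX Het-Met replicate 3 these became -0.32 in Het-Met mice and -0.19 on average, and the genotype difference 0.13. Rpl37 averaged 3.91 CPM, with differences of 0.19 for genotype and 0.017 for E2. Rpl18 had a mean of 2.99 CPM and differed by 0.16 between genotypes and by -0.062 with E2. Rpl21 read 3.15 and 3.57 CPM in vehicle-treated OVX WT, 3.54 and 2.49 in E2-treated OVX WT, 3.84, 3.83 and 2.41 in vehicle-treated OVX Het-Met and 3.62, 2.21 and 19.3 in E2-treated OVX Het-Met libraries. Its difference with E2 in Het-Met mice, 0.67 ± 0.48 (adjusted p 0.963), became -0.18 without the library at 19.3 CPM, and its averages, 0.39 for genotype and 0.26 for E2, became -0.039 and -0.17.

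Rpl13 read 4.16 and 2.18 CPM in vehicle-treated OVX WT, 3.19 and 3.09 in E2-treated OVX WT, 3.18, 2.98 and 3.66 in vehicle-treated OVX Het-Met and 4.45, 2.44 and 12.7 in E2-treated OVX Het-Met libraries. Its averages were 0.38 for genotype and 0.33 ± 0.30 for E2 (adjusted p 0.9995), and 0.079 and 0.032 without E2-treated OVX Het-Met replicate 3. The remaining large subunit genes were low. Rpl9 averaged 1.36 CPM, with differences of 0.30 for genotype and -0.17 for E2. Rpl27 had a mean of 1.22 CPM and differed by 0.036 between genotypes and by -0.11 with E2. Rpl36a averaged 0.775 CPM, with differences of 0.22 for genotype and -0.078 for E2. Rpl28 read between 0.473 and 1.04 CPM in WT and between 0.278 and 1.04 CPM in Het-Met libraries, and its genotype difference of -0.089 ± 0.21 (adjusted p 0.869) turned to 0.063 without vehicle-treated OVX WT replicate 3 and 0.0041 without vehicle-treated OVX Het-Met replicate 3. Its E2 difference was -0.034. These 4 genes rest on 6 to 42 reads per library, which limits what they can show.

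In the small subunit, Rps2 and Rps3 guard the entry of the mRNA channel, Rps15 sits in the head near the tRNAs, and Rps9 and Rps23 act on decoding accuracy. Rps15 read 179 and 171 CPM in vehicle-treated OVX WT, 183 and 168 in E2-treated OVX WT, 224, 212 and 199 in vehicle-treated OVX Het-Met and 187, 199.7 and 203 in E2-treated OVX Het-Met libraries. Each Het-Met value was above every WT value, and the difference of 0.22 ± 0.051 had the lowest adjusted p of the members (limma 0.120). Its E2 difference was -0.051. Rps3, also a DNA repair endonuclease, read 208 and 206 CPM in vehicle-treated OVX WT, 209.6 and 207 in E2-treated OVX WT, 264, 236 and 232 in vehicle-treated OVX Het-Met and 227, 240.0 and 224 in E2-treated OVX Het-Met libraries. It too separated the genotypes, with differences of 0.19 ± 0.049 (adjusted p 0.126) for genotype and -0.036 for E2.

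Rps9 averaged 63.8 CPM, with differences of 0.21 for genotype and -0.14 for E2, and its E2 difference was lower at an unadjusted p under 0.05. Rps2 read 19.2 and 15.9 CPM in vehicle-treated OVX WT, 16.9 and 17.1 in E2-treated OVX WT, 19.9, 19.9 and 16.7 in vehicle-treated OVX Het-Met and 17.0, 20.6 and 7.64 in E2-treated OVX Het-Met libraries. Its difference with E2 in Het-Met mice, -0.42 ± 0.24 (adjusted p 0.931), was -0.0016 without the library at 7.64 CPM, and its averages, -0.089 for genotype and -0.23 for E2, became 0.12 and -0.021. Rps23 read between 0.370 and 0.842 CPM in WT and between 0.391 and 0.759 CPM in Het-Met libraries, with 0.0065 ± 0.17 (adjusted p 0.990) for genotype and -0.098 for E2. It is the lowest member per length of transcript.

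Several small subunit genes are mutated in Diamond-Blackfan anaemia. Rps19, the first gene found in that disease, read 10.7 and 9.02 CPM in vehicle-treated OVX WT, 7.63 and 8.85 in E2-treated OVX WT, 14.2, 11.3 and 12.4 in vehicle-treated OVX Het-Met and 10.8, 10.8 and 16.1 in E2-treated OVX Het-Met libraries. All 6 Het-Met values lay above the 4 WT values, by 0.45 ± 0.12 (adjusted p 0.126 by limma and 0.0345 by DESeq2), and the difference was 0.36 without E2-treated OVX Het-Met replicate 3. Its E2 difference was -0.14. Rps24 averaged 59.4 CPM, with differences of 0.24 for genotype and -0.013 for E2, and it separated the genotypes as well. Rps10 read 0.648 and 0.446 CPM in vehicle-treated OVX WT, 0.359 and 0.215 in E2-treated OVX WT, 0.996, 0.656 and 0.788 in vehicle-treated OVX Het-Met and 0.734, 0.922 and 1.47 in E2-treated OVX Het-Met libraries. Its genotype difference was the largest of the members, 0.64 ± 0.17 (adjusted p 0.129), at 5 to 31 reads per library, and was 0.54 without the library at 1.47 CPM. Its E2 difference was -0.10. Rps26 averaged 58.2 CPM, with differences of 0.19 for genotype and -0.017 for E2. Rps7 read 1.71 and 1.64 CPM in vehicle-treated OVX WT, 2.33 and 2.02 in E2-treated OVX WT, 2.28, 1.77 and 1.95 in vehicle-treated OVX Het-Met and 2.06, 1.43 and 2.37 in E2-treated OVX Het-Met libraries. It was the member with the largest difference towards higher values with E2 in WT mice, 0.30 ± 0.22 (adjusted p 0.9999), and averaged 0.026 for genotype and 0.13 for E2.

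At the mRNA exit and on the platform stand Rps14, Rps28, Rps3a1 and Rps27. Rps14 had a mean of 46.6 CPM and differed by 0.13 between genotypes and by -0.17 with E2. Rps28 averaged 0.703 CPM, with differences of 0.29 for genotype and 0.039 for E2. Rps3a1 had a mean of 13.5 CPM and differed by 0.26 between genotypes and by 0.017 with E2. Without E2-treated OVX Het-Met replicate 3 the genotype and E2 averages were 0.23 and -0.064 for Rps14, and 0.13 and -0.12 for Rps3a1. Rps27, a zinc finger protein, read 0.694 and 1.04 CPM in vehicle-treated OVX WT, 0.763 and 0.731 in E2-treated OVX WT, 1.85, 1.56 and 1.25 in vehicle-treated OVX Het-Met and 1.47, 1.11 and 0.948 in E2-treated OVX Het-Met libraries. Under vehicle it had the largest genotype difference of the members, 0.59 ± 0.22 (adjusted p 0.412), with averages of 0.50 and, for E2, -0.21. Rps18 read 3.42 and 2.68 CPM in vehicle-treated OVX WT, 3.45 and 2.84 in E2-treated OVX WT, 4.55, 4.19 and 4.17 in vehicle-treated OVX Het-Met and 3.33, 2.81 and 11.2 in E2-treated OVX Het-Met libraries. Its genotype difference under vehicle was 0.44 ± 0.37 (limma adjusted p 0.680). E2-treated OVX Het-Met replicate 3 does not enter the 0.44. It does enter the standard error and the adjusted p, since the fit shares 1 spread over all groups. The averages of Rps18, 0.49 for genotype and 0.091 for E2, were 0.21 and -0.20 without that replicate. Rps27 and Rps18 thus had the 2 largest differences under vehicle, neither past the threshold.

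Rps6 is the protein whose phosphorylation by S6 kinase is read as mTORC1 activity. Rps6 averaged 7.65 CPM, with differences of 0.10 for genotype and 0.093 for E2. Rps27a, made as a fusion with ubiquitin, had a mean of 1.47 CPM and differed by 0.28 between genotypes and by -0.053 with E2. Rps12, in the beak of the subunit, read 0.833 and 0.942 CPM in vehicle-treated OVX WT, 1.122 and 1.29 in E2-treated OVX WT, 2.04, 0.807 and 0.974 in vehicle-treated OVX Het-Met and 1.13, 1.01 and 1.57 in E2-treated OVX Het-Met libraries. With E2 in WT mice both values lay above both vehicle values, by 0.30 ± 0.29 (adjusted p 0.9999), and its averages were 0.15 for genotype and 0.16 for E2. Rps20 read 29.4 and 14.2 CPM in vehicle-treated OVX WT, 14.99 and 14.4 in E2-treated OVX WT, 18.8, 17.2 and 17.7 in vehicle-treated OVX Het-Met and 17.1, 18.0 and 39.3 in E2-treated OVX Het-Met libraries. One vehicle-treated OVX WT library, at 29.4 CPM, was high against the others. The difference with E2 in WT mice was -0.47 ± 0.32 (adjusted p 0.9999) and 0.043 without that library, and the genotype difference under vehicle was -0.19 and 0.32 without it. Its averages, 0.22 for genotype and -0.058 for E2, were 0.031 and -0.25 without the E2-treated Het-Met library at 39.3 CPM.

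Of the other small subunit genes, Rps15a had the smallest genotype difference of those over 10 CPM, and averaged 88.6 CPM, with differences of 0.0083 for genotype and 0.026 for E2. Rps21 had a mean of 26.8 CPM and differed by 0.10 between genotypes and by -0.23 with E2, with E2 lower at an unadjusted p under 0.05 on average and within Het-Met mice. Rps25 averaged 12.3 CPM, with differences of 0.49 for genotype and 0.13 for E2. Its averages were 0.31 and -0.054 without the library at 25.6 CPM, the other 5 Het-Met values being 10.2 to 13.6 CPM against 8.77 to 10.9 CPM in WT.

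The E2 comparison asked how estradiol add-back moved these transcripts in each genotype. Ribosomal protein genes showed little shift. In OVX WT mice 29 of 72 members were above 0 (49.0% of all genes), with a median of -0.042, and limma called 0 (0.0133% of all genes), as did edgeR (0.0133%) and DESeq2 (0.0928%), with 0 higher (2.37% of all genes) and 0 lower (1.66%) at an unadjusted p under 0.05. Both E2-treated WT values exceeded both vehicle values for 6 members (15.6% of all genes) and lay below them for 13 (16.2%). In OVX Het-Met mice 28 were above 0 (51.8%), with a median of -0.031, and 0 were called by limma (0% of all genes), edgeR (0%) or DESeq2 (0.0398%). DESeq2 gave no adjusted p in these mice for some low members, among them Rpl28, Rpl35 and Rpl36a. There 4 were lower at an unadjusted p under 0.05 (2.63% of all genes), namely Rpl8, Rpl13a, Rpl37a and Rps21, and 0 higher (2.82%). All E2-treated Het-Met values lay below all vehicle-treated ones for 6 members (5.11%) and above them for 0 (5.15%). Averaged over genotypes, 26 were above 0 (50.9%), with a median of -0.019, 0 were called by limma (0.00663%), edgeR (0%) or DESeq2 (0.0332%), and Rps9 joined those 4 as lower at an unadjusted p under 0.05 (5 members, 1.49% of all genes), with 0 higher (1.73%). All E2-treated libraries were above all vehicle-treated ones for 0 members (0.139% of all genes) and below them for 0 (0.179%). Single libraries bore on these counts: the 4 lower members in Het-Met mice became 7 without vehicle-treated OVX Het-Met replicate 3 (2.54% of all genes) or E2-treated OVX Het-Met replicate 2 (2.30%), and the 0 higher became 4 without E2-treated OVX Het-Met replicate 2 (3.39%), 3 without E2-treated OVX Het-Met replicate 1 (2.69%) and 1 without vehicle-treated OVX Het-Met replicate 1 (3.99%). The 6 members with lower, non-overlapping Het-Met values became 9 to 14 as single Het-Met libraries were left out (9.16% to 10.6% of all genes), except without vehicle-treated OVX Het-Met replicate 1, when there were 6 lower (9.40%) and 6 higher (13.0%). On average over genotypes the 5 became 1 without E2-treated OVX WT replicate 2 (1.09%), 2 without E2-treated OVX WT replicate 1 (0.908%), 3 without vehicle-treated OVX Het-Met replicate 1 (1.35%) and 8 without E2-treated OVX Het-Met replicate 2 (1.35%). In WT mice the 6 higher and 13 lower without overlap became 31 and 26 without vehicle-treated replicate 1 (36.8% and 34.4% of all genes), 17 and 36 without vehicle-treated replicate 3 (36.2% and 40.9%), 10 and 27 without E2-treated replicate 1 (28.6% and 28.9%), and 19 and 16 without E2-treated replicate 2 (28.0% and 29.8%). The first 2 of these leave 1 vehicle library, and the others 1 E2 library. The median in Het-Met mice was 0.039 without vehicle-treated OVX Het-Met replicate 1 and -0.075 without E2-treated OVX Het-Met replicate 3, and the median in WT mice ran from -0.084 to 0.011 as each library was left out.

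The interaction asked whether the E2 difference depended on the genotype. Its median over the members was -0.0017, with 35 above 0 (51.4% of all genes). 0 members were called by limma (0.0729% of all genes), edgeR (0.0862%) or DESeq2 (0.245%), and 0 were higher (2.80%) or lower (2.62%) at an unadjusted p under 0.05. Without E2-treated OVX Het-Met replicate 2 those 2 counts were 4 and 2 (3.41% and 2.51% of all genes), and without E2-treated OVX Het-Met replicate 1 they were 4 and 1 (2.40% and 2.74%). After Rpl35a, the largest positive value was that of Rps20, 0.82 ± 0.42 (adjusted p 0.950), and the lowest were Rpl11, -0.52 ± 0.34, and Rpl37a, -0.46 ± 0.27 (adjusted p 0.9998 and 0.9998). Without E2-treated OVX Het-Met replicate 3 these 4 values were 0.56, 0.44, -0.31 and -0.26. The value of Rps20 also drew on the high vehicle-treated OVX WT library given above, without which its E2 difference in WT mice turned. Without vehicle-treated OVX WT replicate 3, which leaves that high library alone in its group, the interaction of Rps20 was 1.33.

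Both subunits had like values. The median genotype difference was 0.21 for the 43 large and 0.21 for the 29 small subunit genes, with 39 and 28 above 0, and the median E2 difference was -0.017 and -0.036. The 39 members with a mean of at least 10 CPM had a median genotype difference of 0.20 and the 33 below that one of 0.22.

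Levels within the family were uneven, although the proteins are needed in equal numbers. Per kb of transcript, the scale used to compare genes, the highest were Rps15 at 385 CPM per kb, Rpl41 at 269.5, Rpl8 at 266 and Rpl4 at 252. The lowest were Rps23 at 0.603 CPM per kb, Rpl5 at 0.625, Rpl35 at 0.760, Rpl28 at 0.813 and Rps10 at 1.45. As each read was 75 bases long, every 75-base window of each member's annotated transcript (GENCODE vM21, GRCm38) was looked up in the transcripts of all other genes, pseudogenes included. The 14 members with under 50% of their coding windows found elsewhere had a median of 103 CPM per kb, and 12 of them exceeded 50. The 35 with 50% to under 100% had a median of 16.0, and the 22 with all coding windows found elsewhere one of 2.51, with 19 of 22 under 10.

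Over the 71 members with a coding sequence Spearman's rho between level per kb and the copied share was -0.71, a description over genes that share libraries. This share of coding windows was chosen after seeing the data. With the share over the whole transcript, as planned, rho over 72 members was -0.58 for exact matches and -0.29 allowing 2 mismatches. Rpl41, Rpl15 and Rpl27a went against the trend over coding windows, with all of these found elsewhere yet 269.5, 59.5 and 24.0 CPM per kb. Over their whole transcripts, however, only 36.1%, 74.3% and 34.4% of windows were found elsewhere, so reads from the rest had no such copy. On the other side Rps27l was at 8.58 CPM per kb with 27.0% found elsewhere and Rpl7l1 at 24.4 CPM per kb with 7.38%. Rps23, Rpl5 and Rpl28 had all coding windows found elsewhere, and Rpl35 and Rps10 had 82.4% and 81.5%. Whether reads of these low genes were assigned to copies or set aside as matching several places was not tested, and their levels are given as uncertain for that reason.

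**Figure D4:**
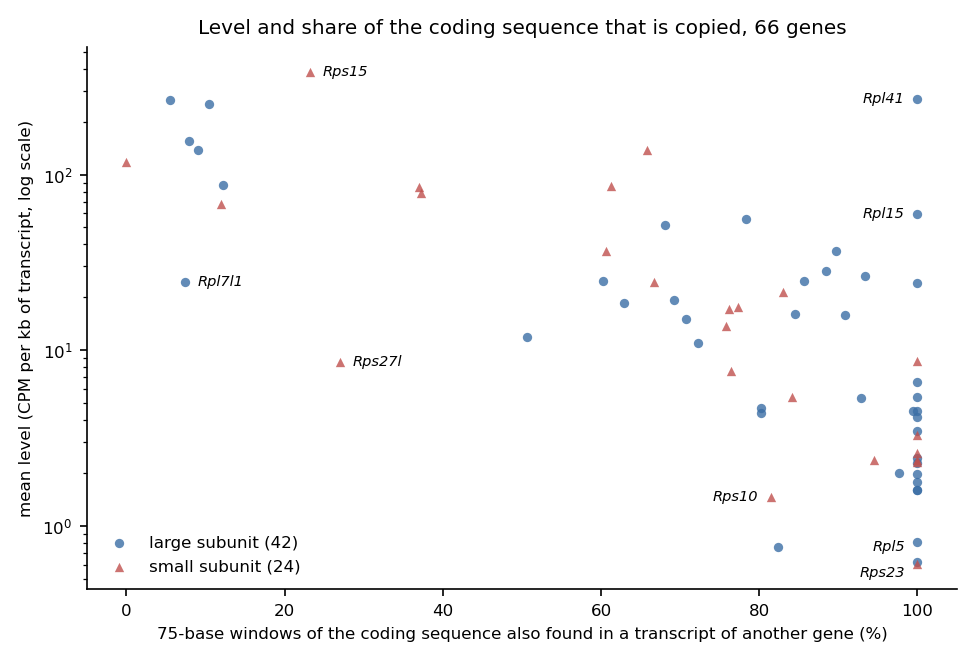
Mean level per kb of transcript on a log scale against the share of 75-base coding windows that also occur exactly in a transcript of another gene, for 42 large (circles) and 24 small subunit genes (triangles). The 12 genes shown under 50% run from 8.58 (Rps27l) to 385 CPM per kb (Rps15) with a median of 103, and 19 of the 22 at 100% sit under 10, with Rpl41, Rpl15 and Rpl27a above.

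The genotype difference did not follow the copied share. Spearman's rho between them was 0.010 over 71 genes. All 14 members with under 50% of coding windows copied were above 0, from 0.10 to 0.24 with a median of 0.17, as were 33 of the 35 between (median 0.24) and 19 of the 22 with all windows copied (median 0.20). None of the 7 genes in which E2-treated OVX Het-Met replicate 3 stood apart is among those 14, but most of the 71 members are outside that class. The part of copies in that library's values was not tested.

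For some members the table also listed the copy, and the copy could have more reads. The pairs are shown because a read is no longer than the stretches printed. Capitals mark the bases that differ between the gene and its copy over the 75 coding bases with the most differences, and all letters are read on the gene's strand:
Rpl37: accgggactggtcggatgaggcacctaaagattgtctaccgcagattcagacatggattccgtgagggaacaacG
Rpl37rt: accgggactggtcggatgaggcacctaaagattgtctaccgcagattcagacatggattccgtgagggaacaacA
Rpl22l1: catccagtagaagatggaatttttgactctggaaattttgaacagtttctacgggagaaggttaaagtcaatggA
Gm15421: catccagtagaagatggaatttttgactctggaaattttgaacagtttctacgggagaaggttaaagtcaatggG
Rpl14: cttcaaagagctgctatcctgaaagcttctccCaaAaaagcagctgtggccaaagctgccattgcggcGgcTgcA
Rpl14-ps1: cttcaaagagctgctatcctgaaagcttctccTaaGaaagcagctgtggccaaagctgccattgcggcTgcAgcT
Rps23: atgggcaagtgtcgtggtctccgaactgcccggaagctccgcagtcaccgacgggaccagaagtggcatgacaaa
Rps23 is shown once, from its start codon, because 398 of its 429 coding bases, these among them, are present without a difference in Gm5148, on the strand opposite to that gene. The libraries came from a stranded kit, but whether counting used the strand is not given in the sources used here.

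Rpl37 lies at chr15:5116645-5119140 and averaged 3.91 CPM, whereas its transcribed processed pseudogene Rpl37rt at chr5:115102923-115110268, with 1 difference over 291 coding bases, averaged 93.2 CPM. Rpl37rt read 79.0 to 90.1 CPM in WT and 92.2 to 106 CPM in Het-Met libraries, a genotype difference of 0.21 ± 0.056 (adjusted p 0.126). Rpl14 at chr9:120571444-120574654 averaged 52.2 CPM, and the processed pseudogene Rpl14-ps1 at chr7:45324965-45325617, with 5 differences over 474 aligned coding bases, averaged 74.4 CPM. Rpl14-ps1 had a genotype difference of 0.32 ± 0.073 (adjusted p 0.120), against 0.25 for Rpl14. Both copies thus had genotype differences of the same sign as their parent genes.

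Rpl22l1 at chr3:28805436-28807424 averaged 6.10 CPM and its transcribed pseudogene Gm15421 at chr5:22528321-22529244, with 2 differences over 366 bases, 9.20 CPM. Rps23 at chr13:90922958-90924950 averaged 0.565 CPM and Gm5148 at chr3:37714190-37724490, listed as protein coding, 6.81 CPM. BC004004, which shares windows with Rpl21 and is also listed as protein coding, averaged 59.1 CPM and Rpl21 4.80 CPM. How many of its reads came from its own transcripts was not tested. The pairs were picked by name, and no count over all listed copies is given. Per kb of transcript the partner outside the members was higher in each of these 5 pairs: Rpl37rt was at 317 and Rpl37 at 4.68 CPM per kb, Rpl14-ps1 at 114 and Rpl14 at 51.7, Gm15421 at 23.1 and Rpl22l1 at 11.04, Gm5148 at 6.21 and Rps23 at 0.603, and BC004004 at 46.0 and Rpl21 at 5.34 CPM per kb. Gm6251, a processed pseudogene named Rpl32l in GENCODE, went the other way, at 8.13 CPM and 20.4 CPM per kb against 79.9 CPM and 154.5 CPM per kb for Rpl32.

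The 9 other symbols of the family stayed under 0.5 CPM and were not tested. Rpl26, at the tunnel exit, and Rpl10l, a testis paralog, had 0 reads in each of the 10 libraries. In any 1 library taken alone, a count of 0 allows up to 3 reads, or 0.129 to 0.151 CPM. Of the coding windows, 71.2% of those of Rpl26 and 0.528% of those of Rpl10l were found elsewhere. Rpl39l, another testis paralog, had 12 reads in all and Rpl3l, the form of striated muscle, 66 reads, 15 in the 4 WT and 51 in the 6 Het-Met libraries. The 5 others encode proteins that every ribosome holds: Rps16 (101 reads), Rps13 (94), Rpl34 (54), Rps29 (49) and Rpl30 (47). All coding windows of Rps16, Rps13 and Rps29 were found elsewhere, as were 72.3% of those of Rpl30 and 60.6% of those of Rpl34. Rpl30 had 18 reads in the 4 WT and 29 in the 6 Het-Met libraries, 1 to 7 per library.

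Paralogs were set beside their main forms. Rpl7l1, a nucleolar relative of Rpl7, averaged 31.96 CPM, with differences of 0.15 for genotype and 0.031 for E2. Rpl22l1 had a mean of 6.10 CPM and differed by 0.29 between genotypes and by 0.12 with E2. Rpl36al averaged 10.2 CPM, with differences of 0.16 for genotype and -0.00080 for E2. Rps27l, a p53 target, had a mean of 4.28 CPM and differed by 0.12 between genotypes and by -0.21 with E2. Rps4x, encoded on the X chromosome, averaged 23.7 CPM, with differences of 0.32 for genotype and 0.16 for E2, values that were 0.19 and 0.037 without E2-treated OVX Het-Met replicate 3. Rps4l, an expressed processed pseudogene in the annotation, had a mean of 19.4 CPM and differed by 0.23 between genotypes and by 0.018 with E2. Per kb of transcript, Rpl7l1 and Rpl7 were at 24.4 and 24.7 CPM per kb, and Rps4x and Rps4l at 24.3 and 24.6. Rpl22l1 was lower than Rpl22, at 11.04 and 137 CPM per kb. Rpl36al was higher than Rpl36a, at 19.3 and 1.605, and Rps27l than Rps27, at 8.58 and 3.31 CPM per kb. All coding windows of Rpl36a and Rps27 were found in other transcripts, against 69.3% of those of Rpl36al and 27.0% of those of Rps27l. The adjusted p of their genotype differences by limma ran from 0.217 (Rps4l) to 0.628 (Rps27l).

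Other genes of the translation machinery were read as counts of lists, beside 57.3% of all genes with an average genotype difference above 0, 9.33% higher and 7.27% lower at an unadjusted p under 0.05. Of 7 ribosomal proteins that the symbol form leaves out, 6 had a genotype difference above 0, with a median of 0.20, 3 were higher at an unadjusted p under 0.05 and 0 lower. Rplp1, of the stalk, was at 226 to 269 CPM in WT and 282 to 328 CPM in Het-Met libraries, a difference of 0.25 ± 0.060 (adjusted p 0.120). Rplp0, which anchors the stalk, was at 69.0 to 87.3 and 55.7 to 84.7 CPM, a difference of -0.099 ± 0.11 (adjusted p 0.674). Of 19 translation factors and other TOP mRNAs 15 were above 0 (median 0.14, 9 higher and 0 lower at an unadjusted p under 0.05), and of 7 host genes of small nucleolar RNAs 7 were (median 0.21, 4 higher and 0 lower). Of 30 ribosome biogenesis genes 24 were above 0 (median 0.075, 6 higher and 2 lower). Of 19 mTORC1 and TOP regulation genes 9 were above 0 (median -0.038, 0 higher and 2 lower). limma called 0 genes of any of these lists in any comparison. Gnb2l1, also called Rack1, is counted in the first and the second of them.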

How the data were processed

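RNA from the vHpc of 10 pools of 2 OVX mice was sequenced from stranded libraries as 75-base single-end reads. The authors trimmed and aligned reads to mm10 with TopHat2 and deposited a featureCounts table in CPM. Submitters' processing notes also name DESeq and DESeq2, and versions are not given in the sources used here. Dividing by the worth of 1 read gave whole numbers for 100% of values (within 0.001 reads), so reads were recovered at 19820184 to 23267410 per library and 3 reads, the limit that a count of 0 allows, are 0.129 to 0.151 CPM, for counting error only.

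Log2(CPM + 0.5) was fitted over the 15081 genes averaging 0.5 CPM or more with limma 3.58.1 in R 4.3.3 (4 group means, trended variance, Benjamini-Hochberg adjustment over all genes), and calls needed an adjusted p under 0.05 and a fold above 1.3. edgeR 4.0.16 and DESeq2 1.42.0 on the recovered reads were alternatives. A gene for which DESeq2 gave no adjusted p was counted as not called. The fit was tested on simulated data. How reads matching several places were counted is not given in the sources used here. Library values or their range were given to members named by a rule, unless not reported here. The rule took the 2 members highest and lowest in each comparison, members called by any tool, and the 5 highest and 5 lowest per kb. Such values were also given, chosen after they were seen, to Rpl23, Rps3 and the members that 1 library set apart. Rpl30 and paralogs were planned too, but are given by reads alone or by a mean and 2 differences. Members and lists were chosen with earlier results of these data known. Lengths, biotypes and transcript sequences came from GENCODE vM21, which matched all but 367 of 24421 symbols, and start sites from RefSeq. The copy search covered annotated transcripts and no other part of the genome. All counts and medians are over the 72 members, of which 5 are not reported here by name or shown in the plots that name genes.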

Additional observations from a re-analysis of the deposited data

How the results depend on the processing

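With 2 or 3 libraries per group, pools of 2 animals and low counts in many copied genes, differences of the size of the standard errors given were not detectable, and limma called 0 members in all 7 comparisons with each pseudocount, filter and scaling run, and without the fold limit.

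At an unadjusted p under 0.05 with the fold limit, the 0 calls became 2 for E2 in Het-Met mice (1.95% of all genes), 1 for genotype under vehicle (3.29%), 9 for genotype under E2 (4.62%) and 5 for genotype on average (1.94%). Without the fold limit they were 4, 17, 19 and 30, and 5 for E2 on average. DESeq2 called 1 member for genotype on average, Rps19, with a log2 difference of 0.46, and edgeR 0. With the length trend removed the genotype medians were 0.095 under vehicle, 0.087 under E2 and 0.099 on average. The replicate block, with numbers that do not pair the libraries (correlations of deviations -0.17 to 0.083), gave 0 calls and a genotype median of 0.21. The fit on the libraries compared alone cannot give the interaction or the averages.

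Leaving out each library in turn, the genotype median on average ran from 0.17 to 0.23, under vehicle from 0.14 to 0.24 and under E2 from 0.15 to 0.23. The E2 medians ran from -0.084 to 0.011 in WT mice, from -0.079 to 0.039 in Het-Met mice and from -0.053 to 0.017 on average, and the interaction median from -0.054 to 0.053. Without vehicle-treated OVX Het-Met replicate 2, Rpl23 had a limma adjusted p of 0.0385 at a fold under 1.3. For the genes of the naming rule, in the comparisons that named them, 544 values under the alternatives kept their sign and side of the threshold, 1 passed it and 6 turned, each on leaving out 1 library: Rps20 with E2 in WT mice (range -0.98 to 0.043) and for genotype under vehicle (-0.70 to 0.32), Rpl21 with E2 in Het-Met mice (-0.18 to 1.25), Rps2 for genotype under E2 (-0.55 to 0.14), and Rpl28 for genotype on average (-0.24 to 0.063, and 0.0041 on leaving out another library). The cause was not tested. Averages of further members turned without E2-treated OVX Het-Met replicate 3, for 19 of 72 members in all.

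The median share of a member's 75-base windows found elsewhere was 49.7%, 62.4% with up to 2 mismatches, and 83.1% in the coding part alone, an alternative chosen after seeing the data.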

Other observations

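Gapdh, a glycolytic gene outside the family that also has many processed copies, was listed at 2.19 to 4.21 CPM over the 10 libraries, or 2.46 CPM per kb of transcript. Its genotype difference was 0.085 ± 0.18 (limma adjusted p 0.847).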
